A study of Homo sapiens with 18 samples.

Results

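UBLCP1, WDR45, ATM, NXPH4, COMMD7 and AAK1 are 6 genes whose transcript levels differed between RKO cells depleted of Tsg101 and RKO cells depleted of Vps28, both of them subunits of the endosomal sorting complex ESCRT-I. They were chosen by name for that difference, after it had been seen in these libraries, and found by matching the RefSeq identifier of each target to a gene symbol. Each has 1 target among the 20802 genes listed, and all 6 were among the 10213 genes tested, with 376 to 1603 counts over all libraries against a minimum of more than 100. UBLCP1 passed this filter only through the siTsg101 groups, with 71 counts in the other 4, whereas the other 5 genes would have passed without them. RKO is an established human colorectal carcinoma line. Cells were transfected with 30 nM of 1 siRNA and collected 72 h later, giving 6 groups of 3 libraries. Control cells received siCtrl#1 or siCtrl#2, which have no intended target, Tsg101 was depleted with siTsg101#1 or siTsg101#2, and Vps28 with siVps28#1 or siVps28#2. All groups shared the transfection, no untransfected cells are among these samples, and a knockdown leaves some of its target. Each library carries a replicate number that its label also gives as a batch, so each batch holds 1 library of every siRNA.

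ESCRT-I gathers ubiquitylated membrane proteins on endosomes for sorting into intraluminal vesicles and delivery to lysosomes. Tsg101 recognises ubiquitin on the cargo, while Vps28 links ESCRT-I to the next complex in the pathway, ESCRT-II. The 6 genes belong to different processes: UBLCP1 encodes a phosphatase of the nuclear proteasome, WDR45 a phosphoinositide-binding protein of autophagosome formation, ATM the kinase that signals DNA double-strand breaks, NXPH4 a secreted neurexophilin, COMMD7 a member of the COMMD family of endosomal recycling proteins, and AAK1 a kinase of clathrin-mediated endocytosis.

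The libraries held 2561790 to 7466916 reads on genes. On the log2 scale against siCtrl#1, the TSG101 transcript fell by 4.84 in the first and by 5.1 in the second siTsg101 group, and VPS28 fell by 4.15 and by 4.07 in the siVps28 groups, so both knockdowns were present in the groups labelled with them. Among 7 markers of colon epithelial cells the summed level was 92.7 to 151 counts per 1000000 reads on genes. CDH1 was at 0 in every library, and KRT19 and VIL1 had 1 and 6 counts over all libraries. The sum thus came almost wholly from EPCAM, KRT8, KRT18 and CDX2. Leukocyte, endothelial and fibroblast markers summed to at most 0.46, 0.528 and 1.47 on the same scale. Levels elsewhere are CPM, normalized counts per 1000000. PTPRC, CD3E, LYZ, CDH5, KDR, COL1A2, COL3A1 and DCN were at 0 throughout. In bulk RNA, fewer cells with a transcript and less of it per cell cannot be told apart.

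The promoter sequences of 5 of the 6 genes were matched in the RefSeq table for GRCh38.p14, NXPH4 being the other. UBLCP1, WDR45 and ATM are shown because their levels moved together over the libraries and COMMD7 because it moved the opposite way, a pattern that the choice of the genes itself favours. Each sequence runs 5′ to 3′ on the gene's strand from 250 bases before to 50 bases after a transcription start. Capitals mark every match, on either strand, to CACGTG (the E-box at the core of the CLEAR element of lysosomal genes), to CCAAT (the CCAAT box), to GGGCGG (the GC box), to TGACGTCA (the cyclic AMP response element), to TGAGTCA (the AP-1 motif) and to TTCCGG (the ETS motif). No matches overlap each other in the windows printed. The windows are chr5:159263040-159263339 on the plus strand for UBLCP1, chrX:49101129-49101428 and chrX:49079838-49080137 on the minus strand for the first and second start of WDR45, chr11:108222817-108223116 on the plus strand for the first start of ATM and chr20:32743418-32743717 on the minus strand for COMMD7.
UBLCP1: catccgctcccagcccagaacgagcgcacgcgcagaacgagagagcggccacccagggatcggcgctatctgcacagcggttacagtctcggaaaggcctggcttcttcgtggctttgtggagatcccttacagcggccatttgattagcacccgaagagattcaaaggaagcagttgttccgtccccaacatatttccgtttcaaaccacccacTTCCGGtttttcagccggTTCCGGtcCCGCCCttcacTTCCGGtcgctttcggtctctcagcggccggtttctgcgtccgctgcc
WDR45, first start: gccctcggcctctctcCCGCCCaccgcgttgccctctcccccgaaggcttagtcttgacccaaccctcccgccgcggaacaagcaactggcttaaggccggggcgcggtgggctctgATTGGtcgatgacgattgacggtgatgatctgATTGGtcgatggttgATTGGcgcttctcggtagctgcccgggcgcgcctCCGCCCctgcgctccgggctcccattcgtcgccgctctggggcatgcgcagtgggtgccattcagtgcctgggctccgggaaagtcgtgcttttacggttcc
WDR45, second start: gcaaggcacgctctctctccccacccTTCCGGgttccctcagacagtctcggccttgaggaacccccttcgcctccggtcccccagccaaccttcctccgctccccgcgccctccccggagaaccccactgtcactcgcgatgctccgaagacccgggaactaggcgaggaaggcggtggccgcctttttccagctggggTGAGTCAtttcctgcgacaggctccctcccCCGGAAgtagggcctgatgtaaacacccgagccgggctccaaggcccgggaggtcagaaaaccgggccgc
ATM, first start: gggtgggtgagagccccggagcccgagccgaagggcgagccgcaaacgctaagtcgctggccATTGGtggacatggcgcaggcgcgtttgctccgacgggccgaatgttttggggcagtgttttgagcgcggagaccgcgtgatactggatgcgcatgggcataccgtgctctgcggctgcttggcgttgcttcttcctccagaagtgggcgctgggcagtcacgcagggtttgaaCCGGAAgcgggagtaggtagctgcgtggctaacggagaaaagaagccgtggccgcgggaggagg
COMMD7: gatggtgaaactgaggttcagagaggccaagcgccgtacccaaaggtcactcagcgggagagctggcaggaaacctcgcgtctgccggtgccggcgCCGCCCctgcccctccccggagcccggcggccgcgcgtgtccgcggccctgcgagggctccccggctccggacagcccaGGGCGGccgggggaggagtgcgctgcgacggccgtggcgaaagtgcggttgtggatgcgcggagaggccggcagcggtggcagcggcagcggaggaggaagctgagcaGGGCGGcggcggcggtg
Counting from 1 at the table's start, with the base before it as -1, UBLCP1 held 3 ETS matches, beginning at -35, -17 and 3, and 1 GC box at -9. The first start of WDR45 held 3 CCAAT boxes, at -133, -101 and -86, and 2 GC boxes, and its second start held 1 AP-1 match at -50 and 2 ETS matches. The first start of ATM held 1 CCAAT box and 1 ETS match, its second start, not printed, held 2 CCAAT boxes and no ETS match, and COMMD7 held 3 GC boxes and no ETS match. AAK1, not printed, held 6 GC boxes, 2 of them overlapping, and 1 ETS match. No window of these genes held the E-box or the cyclic AMP response element. Among 35116 promoters of the same length, 17.2% held the ETS motif, 34.6% the CCAAT box, 45% the GC box, 4.9% the AP-1 motif, 7.3% the E-box and 1.8% the cyclic AMP response element. A match is a description of the letters and does not identify a site in use.

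UBLCP1, WDR45 and ATM were higher after Tsg101 depletion than after Vps28 depletion with every siRNA, and NXPH4, COMMD7 and AAK1 were lower. In each of the 6 genes the 6 siTsg101 libraries and the 6 siVps28 libraries did not overlap, 3 genes with siTsg101 above and 3 below. Over all genes tested, 4.97% did not overlap in this way, 3.33% above and 1.64% below, and 6.23% were called different between Tsg101 and Vps28 depletion at an adjusted p under 0.05 and a 1.5-fold difference, 4.16% higher and 2.07% lower after Tsg101 depletion. The genes were chosen on this contrast, so their values in it are given as a description with no test. Levels are counts per target and are compared between groups for 1 gene, never between genes.

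**Figure D1:**
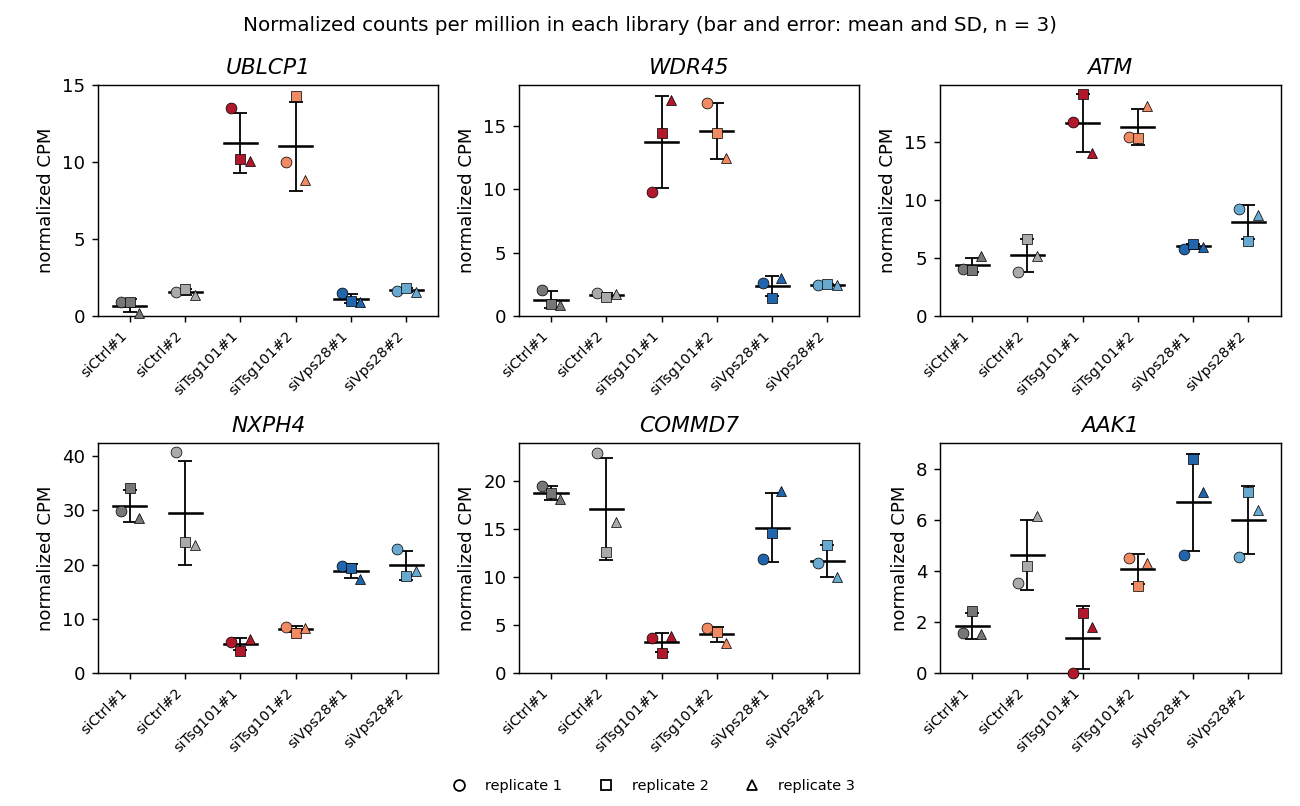
Normalized CPM (vertical axes, 1 scale per gene) of the 6 genes in each library of the 6 siRNA groups, with symbols for the replicate number and bars for the mean ± SD (n = 3). The siTsg101 points stand above all others for UBLCP1, WDR45 and ATM and below all others for NXPH4 and COMMD7, whereas the AAK1 points of siTsg101#2 overlap those of siCtrl#2 and the lowest siVps28 point (4.55) is just above the highest siTsg101 point (4.52).

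UBLCP1 (NM_145049, ENSG00000164332; GRCh37 chr5:158690298-158713044, plus strand, 11 exons) encodes a phosphatase with a ubiquitin-like domain that binds the regulatory particle of the proteasome and lowers its activity in the nucleus. Its normalized CPM in replicates 1, 2 and 3 was 13.5, 10.2 and 10.05 in siTsg101#1 and 9.98, 14.3 and 8.81 in siTsg101#2. In siVps28#1 it was 1.45, 0.960 and 0.916, from only 5, 4 and 4 reads, and in siVps28#2 it was 1.62, 1.82 and 1.56, from 10, 11 and 9 reads. The siTsg101 libraries were all far above the others, while the siVps28 libraries overlapped the controls. In siCtrl#1 it was 0.906, 0.922 and 0.171 CPM, which rests on 4, 3 and 1 reads, and in siCtrl#2 it was 1.52, 1.73 and 1.35 CPM, from 6, 7 and 7 reads. The level was 8.07-fold higher after Tsg101 than after Vps28 depletion (log2 difference 3.01, SE 0.243), rank 4 from the top of the 10213 genes. Both siTsg101 siRNAs gave the same distance from siCtrl#1, 4.15 on the log2 scale (SE 0.405 and 0.397), against 0.832 (SE 0.583) with siVps28#1 and 1.44 (SE 0.504) with siVps28#2. These distances lean on the few siCtrl#1 reads: measured from siCtrl#2 they were 2.84 with each siTsg101 siRNA, -0.472 with siVps28#1 and 0.132 with siVps28#2, and without siCtrl#1 replicate 3 they were 3.56, 3.55, 0.244 and 0.85. Of the whole transcript, 2.8% lies in stretches of 50 bases that also occur at other loci.

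WDR45 (NM_001029896, ENSG00000196998; GRCh37 chrX:48932092-48958108, minus strand, 11 exons), also called WIPI4, encodes a beta-propeller protein that works with ATG2 in the growth of the autophagosome membrane. It had 9.82, 14.4 and 17.0 CPM in replicates 1, 2 and 3 of siTsg101#1 and 16.8, 14.5 and 12.5 CPM in those of siTsg101#2. It had 2.61, 1.44 and 2.98 CPM with siVps28#1, from 9, 6 and 13 reads, and 2.44, 2.48 and 2.43 CPM with siVps28#2, from 15, 15 and 14 reads. Every siTsg101 library was thus above every siVps28 library. All siVps28#2 libraries lay above every control library, whereas siVps28#1 overlapped siCtrl#1 (2.04, 0.922 and 0.855 CPM) through replicate 2 alone (1.44 CPM). The siCtrl#2 libraries, with 1.77, 1.49 and 1.73 CPM, lay within the range of siCtrl#1. The level was 5.95-fold higher after Tsg101 depletion (log2 difference 2.57, SE 0.212), rank 12 from the top. Against siCtrl#1 the log2 fold change was 3.46 (SE 0.341) and 3.50 (SE 0.335) with siTsg101#1 and siTsg101#2, and 0.875 (SE 0.434) and 0.94 (SE 0.405) with siVps28#1 and siVps28#2. Without siCtrl#1 replicate 1, which held 9 of the 17 reads in that group, they were 3.97, 4.01, 1.38 and 1.45. Of the whole transcript, 36.2% lies in stretches of 50 bases that occur elsewhere in the genome, chiefly in its pseudogene WDR45P1. A same-strand gene model overlaps 675 exon bases. Reads could be divided with these, but reads were aligned to the sequencing panel's transcriptome reference, not to the whole genome. The position of the counted target in the transcript is also not given. How far the level is affected was not tested.

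ATM (NM_000051, ENSG00000149311; GRCh37 chr11:108093771-108239829, plus strand, 63 exons) encodes the phosphatidylinositol 3-kinase-related kinase that phosphorylates CHEK2 and H2AX after double-strand breaks. The siTsg101#1 libraries had 16.8, 19.1 and 14.1 CPM, and those of siTsg101#2 had 15.4, 15.4 and 18.1 CPM. With siVps28#1 it had 5.81, 6.24 and 5.95 CPM, and with siVps28#2 it had 9.26, 6.44 and 8.68 CPM. The siVps28#2 libraries lay above all 3 of siVps28#1, and both lay below every siTsg101 library. The controls had 4.08, 4.00 and 5.13 CPM with siCtrl#1 and 3.79, 6.68 and 5.20 CPM with siCtrl#2. The level was 2.35-fold higher after Tsg101 than after Vps28 depletion (log2 difference 1.23, SE 0.162), a smaller difference than for UBLCP1 and WDR45, at rank 115 from the top. The log2 fold changes against siCtrl#1 were 1.88 (SE 0.247), 1.86 (SE 0.241), 0.426 (SE 0.273) and 0.86 (SE 0.253) with siTsg101#1, siTsg101#2, siVps28#1 and siVps28#2. Shared stretches make up 5.3% of the whole transcript, and 114 exon bases lie antisense to C11orf65. Neither the strand setting of the counting nor the position of the counted target is given. Whether reads of C11orf65 were included was not tested.

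NXPH4 (NM_007224, ENSG00000182379; GRCh37 chr12:57610577-57620232, plus strand, 2 exons) encodes a member of the neurexophilins, secreted glycoproteins known from the nervous system as ligands of alpha-neurexins. The siTsg101#1 libraries had 5.73, 4.20 and 6.28 CPM, and those of siTsg101#2 had 8.58, 7.47 and 8.31 CPM. With siVps28#1 it had 19.7, 19.4 and 17.4 CPM, and with siVps28#2 it had 22.9, 17.8 and 18.9 CPM. These groups fell into steps: both controls were highest, siVps28 lay below every control library, and siTsg101 lay below every siVps28 library. The first step was narrow, the highest siVps28 library having 22.9 CPM and the lowest control library 23.7 CPM. The controls had 29.9, 34.1 and 28.6 CPM with siCtrl#1 and 40.7, 24.3 and 23.7 CPM with siCtrl#2. The log2 difference between Tsg101 and Vps28 depletion was -1.53 (SE 0.164), a 2.89-fold lower level and rank 5 from the bottom. Against siCtrl#1 the log2 fold change was -2.48 (SE 0.239) with siTsg101#1, -1.92 (SE 0.216) with siTsg101#2, -0.706 (SE 0.208) with siVps28#1 and -0.628 (SE 0.202) with siVps28#2. No stretch of its transcript occurs elsewhere in the genome at 50 bases.

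COMMD7 (NM_053041, ENSG00000149600; GRCh37 chr20:31290501-31331273, minus strand, 9 exons) encodes a COMMD protein of the Commander complex, which returns membrane proteins from endosomes to the cell surface. It had 3.68, 2.10 and 3.91 CPM with siTsg101#1 and 4.68, 4.36 and 3.16 CPM with siTsg101#2. It had 11.9, 14.6 and 19 CPM with siVps28#1 and 11.5, 13.4 and 10.1 CPM with siVps28#2. The siVps28#1 libraries overlapped both controls, and the siTsg101 libraries stood well below all other groups. The controls had 19.5, 18.8 and 18.1 CPM with siCtrl#1 and 23, 12.6 and 15.8 CPM with siCtrl#2. The log2 difference between Tsg101 and Vps28 depletion was -1.86 (SE 0.199), a 3.63-fold lower level. Only TSG101 itself, the transcript targeted by the siRNAs, had a lower value in this contrast. Against siCtrl#1 the log2 fold change was -2.50 (SE 0.29) with siTsg101#1, -2.20 (SE 0.264) with siTsg101#2, -0.297 (SE 0.24) with siVps28#1 and -0.685 (SE 0.238) with siVps28#2. Its transcript shares no 50-base stretch with other loci, but 602 of its 1362 bases overlap a same-strand gene model. The position of the counted target is not given, and whether reads of that model were included was not tested.

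AAK1 (NM_014911, ENSG00000115977; GRCh37 chr2:69685129-69901481, minus strand, 22 exons) encodes AP2-associated kinase 1, which phosphorylates the mu subunit of the clathrin adaptor AP2. It had 0, 2.36 and 1.81 CPM in the siTsg101#1 libraries and 4.52, 3.42 and 4.32 CPM in those of siTsg101#2. It had 4.64, 8.40 and 7.10 CPM with siVps28#1 and 4.55, 7.10 and 6.42 CPM with siVps28#2. The ranges did not overlap by a narrow margin, the highest siTsg101 library having 4.52 CPM and the lowest siVps28 library 4.55 CPM. The 0 came from the shallowest library, siTsg101#1 replicate 1, where 3 reads would be 1.23 CPM, so a level up to that is allowed by counting error. The controls did not agree in level, siCtrl#1 having 1.59, 2.46 and 1.54 CPM and siCtrl#2 having 3.54, 4.21 and 6.17 CPM, without overlap. The log2 difference between Tsg101 and Vps28 depletion was -1.31 (SE 0.278), a 2.48-fold lower level, rank 15 from the bottom. Against siCtrl#1 the log2 fold change was -0.169 (SE 0.52) with siTsg101#1, 1.17 (SE 0.429) with siTsg101#2, 1.90 (SE 0.423) with siVps28#1 and 1.73 (SE 0.414) with siVps28#2. The siTsg101#1 value was near 0 and ran from -0.488 to 0.173 when 1 library was left out. Against siCtrl#2 it was -1.55, -0.202, 0.523 and 0.353 in the same order, so the position of all 4 on-target groups depended on the nontargeting siRNA used as the reference.

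**Figure D2:**
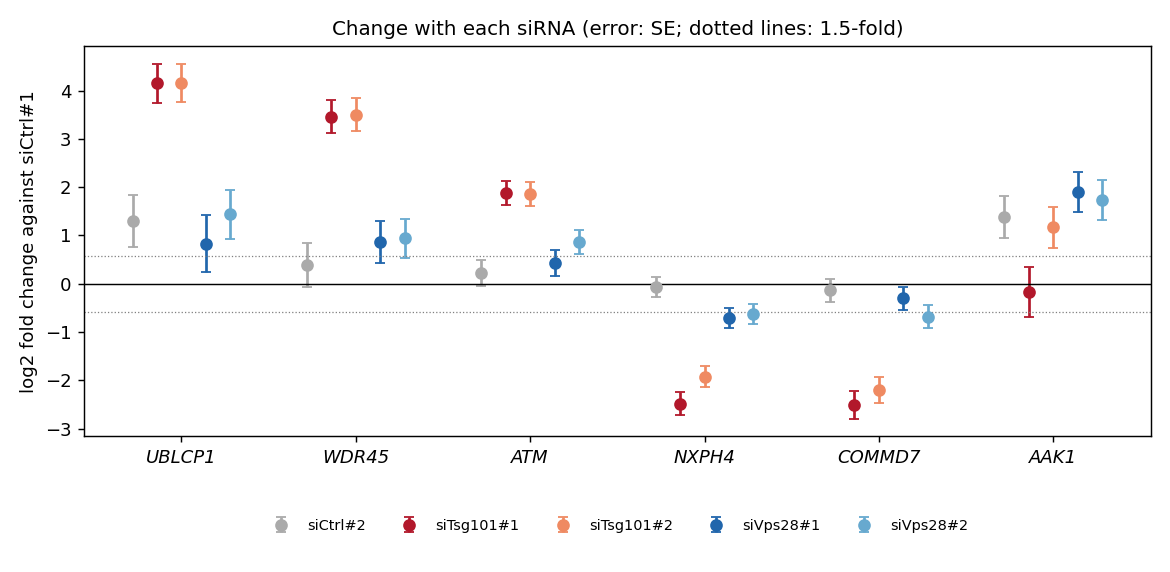
Log2 fold change of each gene against siCtrl#1 (vertical axis) with siCtrl#2 and each on-target siRNA, as points with SE bars, with dotted lines at 1.5-fold. The siTsg101 values of UBLCP1 (both 4.15) and WDR45 (3.46 and 3.50) lie far above their siVps28 values, those of NXPH4 and COMMD7 lie below -1.9, and AAK1 has siTsg101#1 near 0 (-0.169, SE 0.52) and siTsg101#2 at 1.17.

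Within each batch the difference had the same sign, which is again a description of the values the genes were chosen for. Log2 CPM was compared between each siTsg101 and each siVps28 library of the same batch, which gives 4 pairings in each of 3 batches and 12 per gene, and all 72 pairings over the 6 genes had the sign of the fitted difference. Because the siTsg101 and siVps28 libraries of each gene did not overlap, this count was all but fixed and adds nothing about batches. Averaged within batches 1, 2 and 3, the difference in log2 CPM was 2.63, 2.85 and 2.61 for UBLCP1 and 2.18, 2.69 and 2.27 for WDR45. For ATM it was 1.09, 1.38 and 1.11. These 3 genes kept their order in every batch. For NXPH4 the batch values were -1.55, -1.66 and -1.28, for COMMD7 -1.41, -2.06 and -1.86, and for AAK1 -1.82, -1.32 and -1.14. The batch 1 value of AAK1 came from siTsg101#1: that library differed by -3.64 from siVps28#1 and by -3.61 from siVps28#2, whereas siTsg101#2 in the same batch differed by -0.0349 and -0.00682. In batches 2 and 3 the siTsg101#2 pairings of AAK1 were between -1.20 and -0.531.

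**Figure D3:**
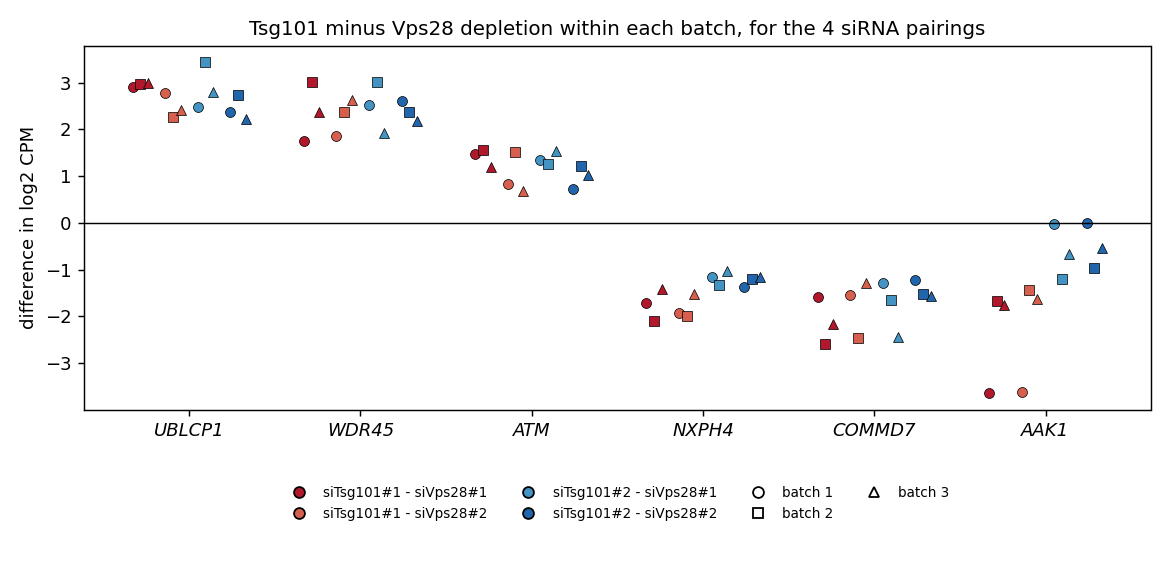
Difference in log2 CPM between each siTsg101 and each siVps28 library of the same batch (vertical axis) for the 6 genes, with colours for the siRNA pairing and symbols for the batch. UBLCP1, WDR45 and ATM lie above 0 and NXPH4 and COMMD7 below it in all 12 pairings, while the AAK1 points spread from -3.64 to -0.00682.

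To separate what the chosen contrast could not test, 4 further contrasts that are orthogonal to it were tested across all genes by the quasi-likelihood method of edgeR, with p-values adjusted after Benjamini and Hochberg. The first compared the mean of the 4 on-target siRNAs with siCtrl#1, in which 15.1% of genes were called, 8.56% higher and 6.54% lower. All 6 genes were called, which supports nothing about them as a set, since they were chosen with results known and UBLCP1 entered the test through the groups in which it was high. UBLCP1 (log2 fold change 2.64, SE 0.406, adjusted p = 5.03e-05), WDR45 (2.19, SE 0.323, adjusted p = 3.08e-05) and ATM (1.26, SE 0.213, adjusted p = 0.000146) rose. NXPH4 (-1.43, SE 0.156, adjusted p = 7.08e-07) and COMMD7 (-1.42, SE 0.188, adjusted p = 9.23e-06) fell. AAK1 rose (1.16, SE 0.373, adjusted p = 0.0261), against its direction between the subunits. This mean contains the siTsg101 values, so for UBLCP1, WDR45, ATM, NXPH4 and COMMD7 it repeats the larger change with siTsg101 and is no second line of evidence for them. The UBLCP1 value was 1.34 (adjusted p = 0.00708) against siCtrl#2, 1.99 (adjusted p = 1.28e-05) against both nontargeting siRNAs and 2.05 (adjusted p = 0.00178) without siCtrl#1 replicate 3. The AAK1 call was lost without siCtrl#1 replicate 1 (1.07, adjusted p = 0.111) and without siCtrl#1 replicate 3 (1.02, adjusted p = 0.133), was 0.47 (adjusted p = 0.192) against both nontargeting siRNAs, and against siCtrl#2 had the other sign (-0.218, adjusted p = 0.679).

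The 2 siRNAs to one subunit were then compared, which asks whether a difference belongs to the subunit or to 1 siRNA. Between siTsg101#1 and siTsg101#2, 6.98% of genes were called, 3.11% higher and 3.87% lower with siTsg101#1, and 0 of the 6 genes. UBLCP1 differed by 0.00201 (SE 0.266, adjusted p = 0.998), WDR45 by -0.0469 (SE 0.243, adjusted p = 0.939), ATM by 0.0189 (SE 0.212, adjusted p = 0.973) and COMMD7 by -0.306 (SE 0.323, adjusted p = 0.636) on the log2 scale. NXPH4 (-0.563, SE 0.254, adjusted p = 0.188) and AAK1 (-1.34, SE 0.439, adjusted p = 0.0609) were lower with siTsg101#1 at an unadjusted p under 0.05, 2 of the 6. The share of all tested genes at that unadjusted threshold is not given, here or below. Such counts therefore show no excess over all genes. AAK1 was called with the replicate number as a block (-1.42, adjusted p = 0.0262), with DESeq2 (-1.35, adjusted p = 0.0416) and with no filter on low counts (-1.35, adjusted p = 0.0271). Between siVps28#1 and siVps28#2, 0.48% of genes were called, 0.215% higher and 0.264% lower with siVps28#1, and 0 of the 6 by edgeR or DESeq2 and 0 at an unadjusted p under 0.05. The differences there ran from -0.604 (SE 0.457, adjusted p = 0.826) for UBLCP1 to 0.388 (SE 0.243, adjusted p = 0.748) for COMMD7, with -0.434 (SE 0.247, adjusted p = 0.702) for ATM. A test that misses its threshold leaves differences of about 2 SE open in each direction.

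The nontargeting siRNAs were compared in the same way, since the distance from a control depends on which is used. Between siCtrl#2 and siCtrl#1, 2.09% of genes were called, 1.41% higher and 0.676% lower with siCtrl#2, and 0 of the 6 by edgeR or DESeq2. AAK1 (1.38, SE 0.437, adjusted p = 0.112) and UBLCP1 (1.30, SE 0.537, adjusted p = 0.249) were the 2 genes at an unadjusted p under 0.05, both higher with siCtrl#2. With no filter on low counts AAK1 was called in this contrast (1.38, adjusted p = 0.0448). WDR45, ATM, NXPH4 and COMMD7 differed by 0.393, 0.227, -0.063 and -0.135, with adjusted p from 0.758 to 0.932. Of the 24 values of the 6 genes with the 4 on-target siRNAs, 21 were at least 1.5-fold from siCtrl#1 and 13 at least 1.5-fold from siCtrl#2.

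Ordered by their mean, the groups formed different ladders in the 6 genes. For UBLCP1 and WDR45 both siTsg101 groups came first, in overlapping ranges, and were separated by a gap from the other 4 groups, in which no neighbours were apart. Groups further from each other in this order could be apart: siVps28#2 lay above both controls for WDR45 and above siCtrl#1 for UBLCP1. For ATM siVps28#2 lay below both siTsg101 groups and apart from siVps28#1, the next in order, although 1 library of siCtrl#2 (6.68 CPM) reached into its range, and siVps28#1, siCtrl#2 and siCtrl#1 followed in overlapping steps. For NXPH4 siCtrl#1 and siCtrl#2 overlapped, siVps28#2 and siVps28#1 overlapped below them, and siTsg101#2 and siTsg101#1 were each apart. For COMMD7 the order was siCtrl#1, siCtrl#2, siVps28#1 and siVps28#2 in overlapping steps, then a gap, then siTsg101#2 and siTsg101#1. For AAK1 it was siVps28#1, siVps28#2, siCtrl#2 and siTsg101#2 in overlapping steps, then a gap, then siCtrl#1 and siTsg101#1.

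Over the 18 libraries the log2 levels of UBLCP1, WDR45 and ATM followed each other with a Pearson r of 0.91 to 0.95, and NXPH4 and COMMD7 had an r of 0.96. Between these sets r was -0.97 to -0.90, and AAK1 had an r of -0.35 to 0.34 with the other 5. The 18 libraries share 6 siRNA groups and are not independent points, so these values are a description. The genes were also chosen for a difference between the siTsg101 and siVps28 libraries, and that choice by itself favours such r values. Leaving out the other chosen genes, the tested genes most like UBLCP1 were LMAN1 (r = 0.957), the ERGIC-53 cargo receptor, APEX2 (r = 0.955), a base excision repair nuclease, and FAM120AOS (r = 0.951). LMAN1 had a mean of 28.3 and 27.3 CPM with siTsg101#1 and siTsg101#2 against 6.69 and 8.3 CPM with siVps28#1 and siVps28#2, and FAM120AOS, at 0 in siCtrl#1, had 5.26 and 6.16 CPM against 0.236 and 0.328 CPM. WDR45 was followed most closely by the splicing factor SF1 (r = 0.962), the protein phosphatase 2A catalytic subunit PPP2CA (r = 0.956) and SOX12 (r = 0.955), and ATM by SF1 (r = 0.971), SECISBP2L (r = 0.968) and the Wnt coactivator BCL9 (r = 0.965). SF1 had 266 and 243 CPM with the siTsg101 siRNAs, 62.3 and 72.4 CPM with the siVps28 siRNAs and 43.8 and 48.5 CPM with the controls.

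Among the genes lower after Tsg101 depletion, NXPH4 was followed by CCAR2 (r = 0.963), PABIR2 (r = 0.955) and the actin regulator MARCKSL1 (r = 0.94). COMMD7 was followed by VASP (r = 0.954), which promotes actin filament growth, and by TSG101 (r = 0.927). VASP had 74.8 and 66.8 CPM with siTsg101#1 and siTsg101#2 against 182 and 174 CPM with siVps28#1 and siVps28#2, and MARCKSL1 had 11.2 and 18.5 CPM against 38.6 and 37.1 CPM. TSG101, the transcript that the siTsg101 siRNAs target, had 3.9 and 3.43 CPM against 117 and 118 CPM. AAK1 had no gene as close, with NXPE3 at r = 0.833 and ATP9A and the transcription factor subunit GTF2E1 at r = 0.817. GTF2E1 shared the gap between the siTsg101 siRNAs, with 11.6 CPM with siTsg101#1 and 32.8 CPM with siTsg101#2.

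Of the 12 nearest tested neighbours of these genes on the chromosome, 0 were called between Tsg101 and Vps28 depletion by edgeR, with 6 at an unadjusted p under 0.05, and 1 was called by DESeq2. The share of all tested genes at that unadjusted p is not given, so the 6 show no excess. NPAT, which coactivates histone genes and lies 406 bases from ATM on the opposite strand, had 26.3 CPM after Tsg101 and 22.1 CPM after Vps28 depletion (log2 difference 0.244, SE 0.183, adjusted p = 0.439). TFE3, a lysosomal and autophagy transcription factor 31156 bases from WDR45, passed the p threshold (-0.456, SE 0.116, adjusted p = 0.0104) but not the 1.5-fold one, with 111 CPM after Tsg101, 152 CPM after Vps28 depletion and 123 CPM in the controls. POGLUT3 beside ATM (0.586, SE 0.204, adjusted p = 0.0637) and SHMT2 beside NXPH4 (-0.419, SE 0.14, adjusted p = 0.0527) had the sign of their neighbour without passing. POGLUT3 was the call of DESeq2 (0.59, adjusted p = 0.0421), and was also called with the replicate number as a block (0.59, adjusted p = 0.0112). ANXA4, whose span overlaps AAK1 on the other strand, differed by -0.159 (SE 0.129, adjusted p = 0.478).

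Families and partners of the 6 genes were read in the same contrast from lists of 102 genes, 91 of them tested. Of these, 2 were called higher and 1 lower after Tsg101 depletion, against 4.16% and 2.07% of all tested genes, and their median log2 difference was -0.0345 against -0.013 for all tested genes. None of the 7 listed relatives of UBLCP1, which share the type of its phosphatase domain and include the nuclear envelope phosphatase CTDNEP1 and the mitochondrial import subunit TIMM50, and none of the 18 subunits of the proteasome regulatory particle that UBLCP1 acts on was called by edgeR or DESeq2, with 3 and 5 at an unadjusted p under 0.05 and medians of 0.0415 and -0.0908. As the share of all tested genes at that unadjusted p is not given, such counts show no excess in any list. The relative CTDSP2 (-0.557, SE 0.136, adjusted p = 0.008) and the subunits PSMD14 (-0.504, SE 0.135, adjusted p = 0.0153) and PSMD8 (0.427, SE 0.14, adjusted p = 0.0482) passed the p threshold but not the 1.5-fold one. Among 18 tested genes of the WDR45 family and early autophagy, 4 were at an unadjusted p under 0.05 and 1 was called. This was ATG16L1, which directs LC3 lipidation. ATG16L1 rose from a mean of 12.9 CPM after Vps28 to 20.9 CPM after Tsg101 depletion (0.74, SE 0.186, adjusted p = 0.00995), with 10.6 CPM in the controls. Its log2 fold change against siCtrl#1 was 1.16, 1.23, 0.173 and 0.741 with siTsg101#1, siTsg101#2, siVps28#1 and siVps28#2, the last standing between the others. The WDR45 relatives WDR45B (-0.32, SE 0.112, adjusted p = 0.0639), WIPI1 (-0.392, SE 0.14, adjusted p = 0.0699) and WIPI2 (-0.0222, SE 0.127, adjusted p = 0.937) were not called.

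Among 19 genes of the ATM kinase family and the double-strand break response, 1 was called higher and 1 lower, with 9 at an unadjusted p under 0.05. Without the share of all tested genes at that unadjusted p, the 9 show no excess, and the same holds for the counts below. MTOR (-0.417, SE 0.108, adjusted p = 0.0125), MDC1 (-0.463, SE 0.131, adjusted p = 0.0211) and TTI1 (0.514, SE 0.143, adjusted p = 0.0193) passed the p threshold but not the 1.5-fold one. The MDC1 difference came with siTsg101#1. Its log2 fold change against siCtrl#1 was -1.25 with siTsg101#1 and -0.491 with siTsg101#2, against -0.239 and -0.581 with siVps28#1 and siVps28#2. TTI2, part of the chaperone complex that stabilises ATM and its relatives, was higher after Tsg101 depletion, at 13.1 CPM against 7.8 CPM after Vps28 depletion and 5.74 CPM in the controls (0.738, SE 0.165, adjusted p = 0.00386). Its log2 fold change against siCtrl#1 was 1.26 and 1.17 with siTsg101#1 and siTsg101#2, and 0.487 and 0.46 with siVps28#1 and siVps28#2. RNF168, the ubiquitin ligase that marks chromatin at breaks, was lower (-0.603, SE 0.143, adjusted p = 0.00611), and this came with siTsg101#1, whose log2 fold change against siCtrl#1 was -0.839 while siTsg101#2 had 0.105. The RNF168 difference was under 1.5-fold, at -0.582 to -0.554 (adjusted p = 0.0162 to 0.026), and so not called without siTsg101#1 replicate 3, siTsg101#2 replicate 1 or 3, siVps28#1 replicate 2 or siVps28#2 replicate 1. Of the neurexophilin and neurexin list only NLGN2 and NLGN3 were tested, at -0.134 and -0.058, and NXPH1, NXPH2 and NXPH3 had 0 counts in every library. Of the 13 tested COMMD and Commander genes none was called by edgeR or DESeq2, with 7 at an unadjusted p under 0.05 and a median of 0.201, opposite in sign to COMMD7, and COMMD4 passed the p threshold alone (0.427, SE 0.136, adjusted p = 0.0413). None of the 14 genes around AAK1 was called by edgeR or DESeq2, with 4 at an unadjusted p under 0.05, and CLTC passed the p threshold alone (-0.452, SE 0.126, adjusted p = 0.0197). The CLTC difference came with siTsg101#2. Its log2 fold change against siCtrl#1 was 0.392 with siTsg101#1 and -0.381 with siTsg101#2, against 0.459 and 0.457 with siVps28#1 and siVps28#2. The AAK1 relatives GAK and BMP2K differed by 0.198 (SE 0.108, adjusted p = 0.26) and 0.118 (SE 0.133, adjusted p = 0.633), and the endocytic adaptor EPN1 had the highest value, 0.833 (SE 0.277, adjusted p = 0.0514). EPN1 was called with the replicate number as a block (0.846, adjusted p = 0.0156).

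**Figure D4:**
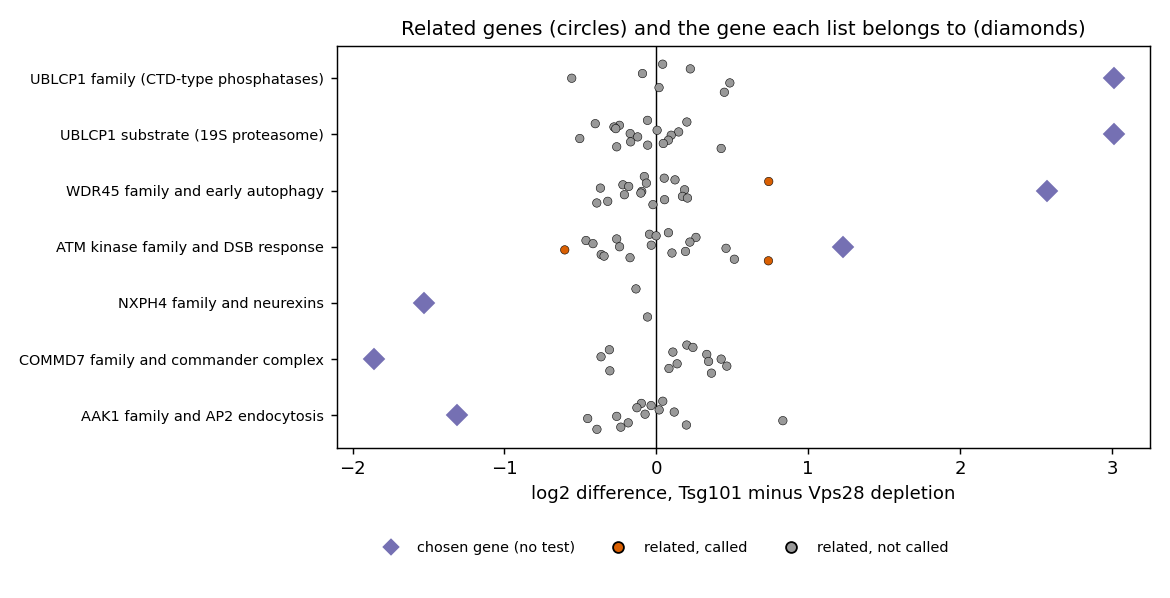
Log2 difference between Tsg101 and Vps28 depletion (horizontal axis) of each tested related gene, in 1 row per list, as circles, with the chosen gene that each list belongs to as a diamond. The circles lie between -0.603 and 0.833, 3 of them called, whereas the diamonds lie at 1.23 or above and at -1.31 or below.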

How the data were processed

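Per the labels and the study's methods, RNA of 18 RKO samples was read with the Ion AmpliSeq Transcriptome panel and counted with HTSeq 0.6.0. Reads were aligned to the hg19 AmpliSeq transcriptome reference of the panel, not to the whole genome. The authors deposited raw counts per target, 1 list per library, neither normalized nor filtered. The strand setting and the positions of the targets in their transcripts are not given in the sources used here, so shared and overlapping bases are stated over whole transcripts. Of all reads, 48.23 to 49.07% fell on no feature and were left out of library sizes. Genes with more than 100 counts in all, noncoding ones excluded, were fitted in 1 model of 6 groups with edgeR 4.0.16 (TMM, quasi-likelihood) in R 4.3.3, with Benjamini-Hochberg adjustment over 10213 genes, and called at adjusted p under 0.05 and 1.5-fold. CPM are counts per 1000000 of the TMM-scaled library, and log2 CPM between libraries used a prior count of 2. The sums of cell type markers were not TMM-scaled. DESeq2 1.42.0 and other settings served as alternatives. The labels name the replicate number as a batch, so it pairs the libraries; same-numbered libraries deviated together with a mean r of 0.145 over 45 pairs (-0.148 to 0.389). The fit was tested on simulated data. The study describes its RNA-Seq as based on independent experiments. Named were the 6 genes, TSG101 and VPS28, called related genes, nearest neighbours and the 3 most correlated genes, 1 of which is not reported here; other related genes named were chosen after their values were seen. The genes and lists were chosen with earlier results of these data known. Intervals and floors cover counting error only.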

Additional observations from a re-analysis of the deposited data

Results flagged for a closer look

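RNF168, one of the genes of the double-strand break response read beside ATM, differed between the siRNAs to the same subunit. Its log2 difference between siTsg101#1 and siTsg101#2 was -0.943 (SE 0.207, adjusted p = 0.0054 by edgeR with Benjamini-Hochberg adjustment), with a mean of 21.6 CPM with siTsg101#1 against 41.2 CPM with siTsg101#2, 46.3 CPM with siVps28#1 and 43.9 CPM with siVps28#2. The controls had 38.4 and 45.7 CPM, so that 1 of the 6 groups stood apart. Of all tested genes, 6.98% were called between siTsg101#1 and siTsg101#2, so such a gap is not particular to RNF168.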

How the results depend on the processing

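The Tsg101 minus Vps28 differences of the 6 genes kept their sign in every alternative that gave a value. The count of values at least 1.5-fold from the reference, 21, was 13 against siCtrl#2 and 7 with at least 10 counts required per library, which removed UBLCP1, WDR45, COMMD7 and AAK1. Reversed values were near 0 or rested on the reference: UBLCP1 between the siTsg101 siRNAs with no low-count filter (-0.00675), and against siCtrl#2 UBLCP1 with siVps28#1 (-0.472), AAK1 with siTsg101#2 (-0.202) and AAK1 with all on-target siRNAs (-0.218). Over all genes, siVps28#1 against siVps28#2 gave 22 higher and 27 lower calls, siCtrl#2 against siCtrl#1 144 and 69. With no filter these were 77, 72, 235 and 124, with only the groups compared 14, 12, 68 and 21; DESeq2 gave 48 lower for siVps28. With the replicate block the lower calls were 47 and 120, and it changed no call of the 6 genes other than AAK1 between the siTsg101 siRNAs, and none of the related genes and neighbours other than EPN1 and POGLUT3. AAK1 with siTsg101#1 against siCtrl#1 ran from -0.488 to 0.173 with 1 library left out. The cause was not tested. Leaving out 1 library gave, higher and lower, 385 to 444 and 203 to 221 for Tsg101 against Vps28, 692 to 878 and 543 to 703 for on-target against siCtrl#1, 197 to 370 and 221 to 447 for siTsg101#1 against siTsg101#2, 6 to 27 and 4 to 34 for the siVps28 siRNAs, 71 to 244 and 22 to 196 for the controls, 2 to 3 and 0 to 2 related genes, and 19 to 21 values past 1.5-fold. Uncalled differences that turned sign ranged, between the siTsg101 siRNAs, from -0.128 to 0.235 for UBLCP1, -0.245 to 0.123 for WDR45 and -0.0998 to 0.146 for ATM; between the siVps28 siRNAs, from -0.308 to 0.199 for WDR45, -0.151 to 0.0358 for NXPH4 and -0.0158 to 0.362 for AAK1; and between the controls, from -0.363 to 0.0776 for NXPH4 and -0.398 to 0.0381 for COMMD7. Depth limits UBLCP1, WDR45 and AAK1, which had under 20 reads in most control libraries, where 1 read is 0.171 to 0.307 CPM. UBLCP1 and WDR45 also had under 20 reads in every siVps28 library.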
